A study of Mus musculus with 40 samples.

Results

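Genes that mark the visceral endoderm of the yolk sac or the early liver were described across RNA-sequencing libraries of mouse embryos: *Afp*, *Ttr*, *Apoa1*, *Apoa4*, *Apob*, *Amn*, *Cubn*, *Rbp4*, *Alb* and *Serpina1e*. All 10 were found by symbol among the 26411 genes counted. They were chosen because earlier results on the same E9.5 libraries had shown them to vary, so their levels at E9.5 are a description, and so are the FDRs given for them. The E14.5 libraries were not used in that choice.

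The E9.5 data came from 24 whole male embryos on a C57BL/6 background, 4 of each of 6 genotypes and from 17 litters. These were wild type (WT), *Kat6a-/-* and *Kat6b-/-* (null alleles that lack several exons), *Kat6aE/E* (homozygous for G656E in KAT6A), *Kat6bE/E* (homozygous for G577E in KAT6B) and *Kat6aE/E;Kat6bE/E* (homozygous for both). The point mutations replace a glycine in the acetyltransferase domain of each of these related chromatin regulators, and the wild-type form of the other gene was present in every single mutant. The extra-embryonic membranes had been dissected off for genotyping, and embryos were picked for a similar external appearance. A further 16 libraries came from E14.5 fetal liver cells sorted as lineage marker-negative, SCA-1-positive and c-KIT-positive (LSK cells, a population rich in blood stem and progenitor cells), 4 each of WT, *Kat6aE/E*, *Kat6bE/E* and *Kat6aE/E;Kat6bE/E*. The labels name each library's litter, and replicate embryos were separate animals.

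The visceral endoderm is the epithelium that covers the early conceptus and later lines the outside of the yolk sac. It takes up maternal nutrients through an endocytic receptor made of cubilin (*Cubn*) and amnionless (*Amn*), and it secretes carrier proteins, among them alpha-fetoprotein (*Afp*), transthyretin (*Ttr*), retinol binding protein (*Rbp4*) and the apolipoproteins *Apoa1*, *Apoa4* and *Apob*. The liver bud arises from the foregut at about the stage sampled here and switches on an overlapping set of genes, including *Afp*, *Alb* (serum albumin) and *Serpina1e* (an alpha-1 antitrypsin). A whole embryo at this stage can thus hold these transcripts from its own liver bud and gut, and from any yolk sac left attached.

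The libraries held 8401990 to 23339359 counted read pairs at E9.5 and 12270376 to 59216547 at E14.5. Counts over whole genes do not check the null labels, because exons outside the deletions are still counted: *Kat6a* lay at 160 to 171 CPM (counts scaled to library size by TMM) in *Kat6a-/-* embryos against 169 to 186 in WT, and *Kat6b* at 52 to 58.3 in *Kat6b-/-* against 38.2 to 42.6. In the sorted cells *Kit* was at 351 to 552 CPM and *Cd34* at 349 to 844, whereas *Ly6a*, which encodes SCA-1, was at 0.937 to 10.3.

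In these genes 3 E9.5 libraries stood apart: WT replicate 4, *Kat6a-/-* replicate 4 and, to a lesser degree, *Kat6a-/-* replicate 3. The 10 genes summed to 189.9 CPM in WT replicate 4, 170.6 in *Kat6a-/-* replicate 4 and 50.98 in *Kat6a-/-* replicate 3. In the other 21 libraries the sum ran from 4.914 to 64.13 CPM, with a median of 33.99. WT replicate 4 was the highest of the 24 libraries for 6 of the genes and *Kat6a-/-* replicate 4 for 2. The depth of the 3 libraries, at 19078839, 21725329 and 12921925 read pairs, lay within the range of the other 21, and so did the number of genes with a count, at 18553, 18788 and 18142 against 17517 to 18854. The 2 *Kat6a-/-* libraries came from different litters, and *Kat6a-/-* replicate 1, a littermate of replicate 4, was not high.

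**Figure D1:**
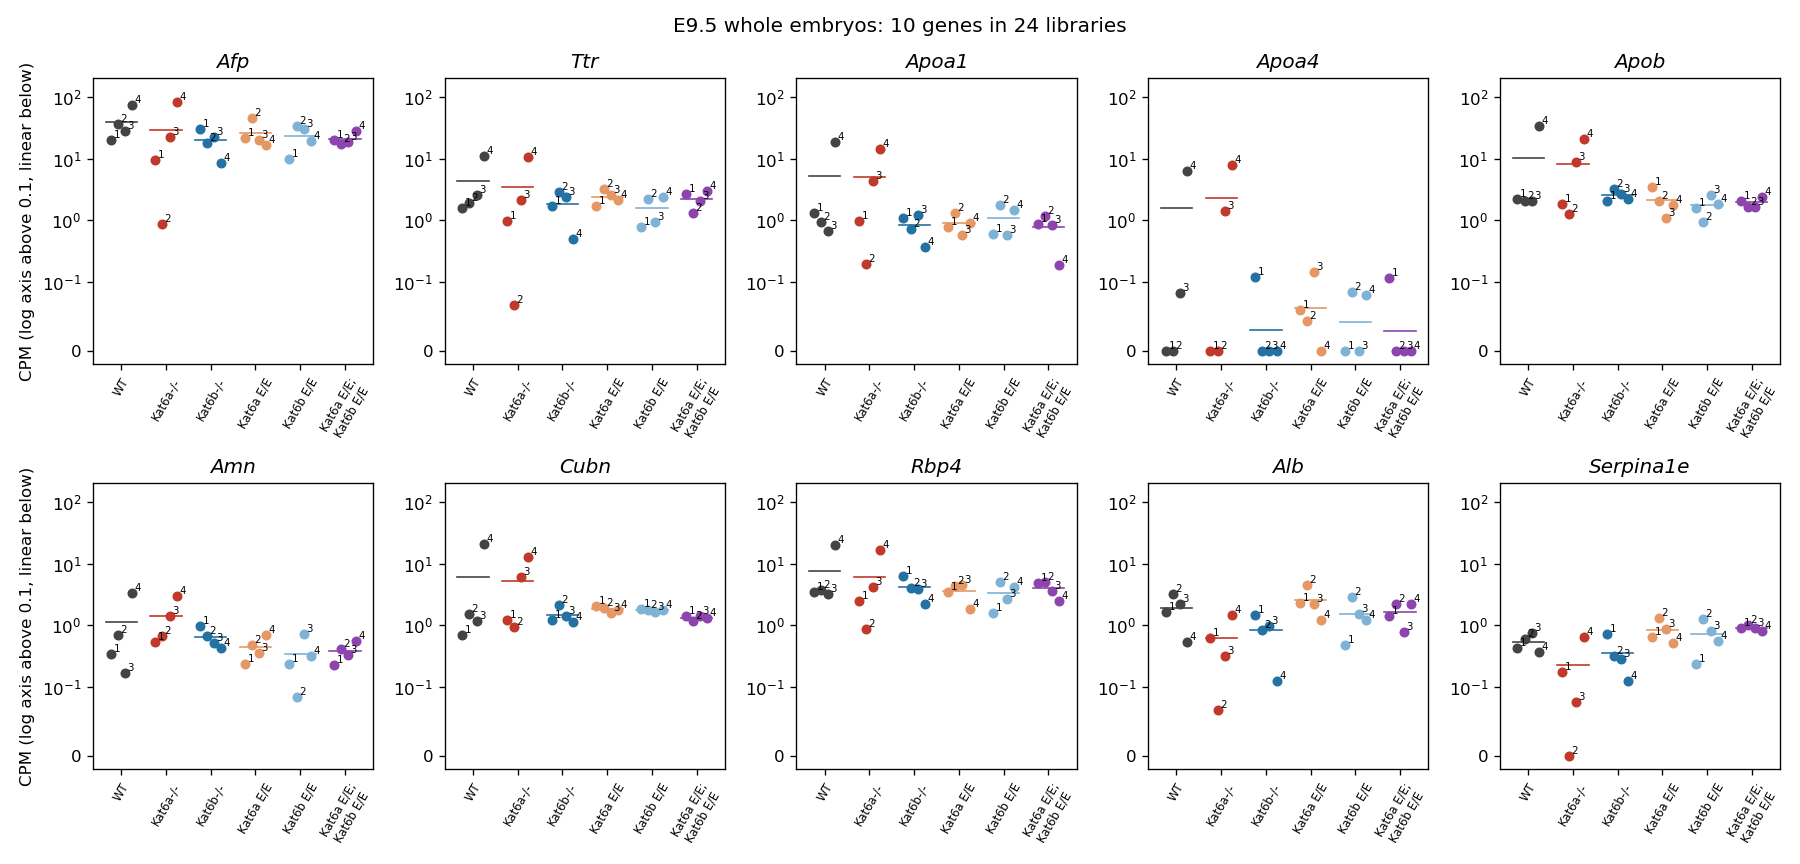
CPM of each of the 10 genes (vertical axis, logarithmic above 0.1 and linear below) in the 24 E9.5 libraries by genotype; points are libraries numbered by replicate, and lines are group means. WT replicate 4 and *Kat6a-/-* replicate 4 lie above the other libraries for *Ttr*, *Apoa1*, *Apoa4*, *Apob*, *Amn*, *Cubn* and *Rbp4*, but not for *Alb* and *Serpina1e*.

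Both endocytic receptor genes were high in the 3 libraries. *Cubn* was at 0.692, 1.54, 1.18 and 20.7 CPM in WT replicates 1 to 4 and at 1.24, 0.93, 6.18 and 12.9 CPM in *Kat6a-/-* replicates 1 to 4. In the 16 libraries of the other 4 genotypes it stayed within 1.12 to 2.1 CPM. The 3 high libraries were picked on levels of the 10 genes, so their separation on any of these genes describes that choice. Counts of *Cubn* were 387, 275 and 79 in them and 8 to 45 in the other 21. The WT mean of 6.04 CPM ± 9.81 (SD, n = 4) was therefore set by 1 embryo. *Amn*, whose product carries cubilin to the cell surface, was at 0.346, 0.686, 0.169 and 3.38 CPM in WT and at 0.529, 0.664, 1.41 and 3.0 CPM in *Kat6a-/-* embryos. The other 4 genotypes ranged from 0.0856 to 0.972 CPM, which overlaps WT replicates 1 to 3.

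*Apoa4*, a lipid-binding apolipoprotein, came closest to being present or absent. It had 118, 168 and 18 read pairs in WT replicate 4, *Kat6a-/-* replicate 4 and *Kat6a-/-* replicate 3, and 0 to 2 in each of the other 21 libraries. Of the 24 libraries, 13 had none. A count of 0 allows up to 3 counts per library, or 0.129 to 0.365 CPM over the depths of all 24 libraries. *Apoa1*, the main protein of high-density lipoprotein, was at 1.3, 0.943, 0.677 and 18.3 CPM in WT and at 0.971, 0.199, 4.38 and 14.52 CPM in *Kat6a-/-* embryos, with 0.187 to 1.8 CPM in the other 16 libraries. *Apob*, the structural protein of chylomicrons and very low-density lipoprotein, was at 2.25, 2.06, 2.03 and 34.1 CPM in WT and at 1.85, 1.26, 8.68 and 20.6 CPM in *Kat6a-/-* embryos. The remaining 16 libraries held 0.942 to 3.5 CPM of *Apob*. For all 3 apolipoproteins, which are among the genes the 3 high libraries were picked on, those libraries lay above every other library.

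The secreted carriers *Afp*, *Ttr* and *Rbp4* were high in WT replicate 4 and *Kat6a-/-* replicate 4 only. *Afp*, the main plasma protein of the fetus, was at 19.8, 36.0, 27.7 and 74.8 CPM in WT and at 9.62, 0.863, 22.2 and 82.0 CPM in *Kat6a-/-* embryos, and the other 4 genotypes ranged from 8.42 to 45.0 CPM. *Kat6a-/-* replicate 3 ranked 11th of 24 for *Afp*, 13th for *Ttr* and 9th for *Rbp4*, within the range of the libraries around it. *Ttr*, which carries thyroid hormone and retinol binding protein, reached 11.1 and 10.8 CPM in the 2 highest libraries and 0.0664 to 3.23 CPM in the other 21. *Rbp4*, the plasma carrier of retinol, reached 20.1 and 16.9 CPM there, against 0.863 to 6.32.

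The hepatocyte genes *Alb* and *Serpina1e* did not follow. Some other genes that the liver expresses did, among them *Fga* and *Hnf4a* in WT replicate 4 and *Kat6a-/-* replicate 4, as given below. *Alb* was at 1.64, 3.17, 2.2 and 0.536 CPM in WT, so the WT library highest in the yolk sac genes was the lowest of its group for albumin, with 10 read pairs. In *Kat6a-/-* embryos it was at 0.618, 0.0664, 0.313 and 1.45 CPM. WT replicate 4, *Kat6a-/-* replicate 3 and *Kat6a-/-* replicate 4 ranked 20th, 22nd and 12th of 24. *Serpina1e* was at 0.432, 0.6, 0.761 and 0.375 CPM in WT and at 0.176, 0, 0.0782 and 0.655 CPM in *Kat6a-/-* embryos. Both genes were highest in *Kat6aE/E* replicate 2, at 4.57 CPM for *Alb* and 1.29 CPM for *Serpina1e*. Levels of *Serpina1e* are uncertain, since 26.3% of its transcript's 66-base stretches also occur in its paralogs *Serpina1a* to *Serpina1d* or in 2 predicted genes; the other 9 genes shared none.

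At the low end stood *Kat6a-/-* replicate 2, which was the lowest library, or tied for it, for 6 of the 10 genes. It held 13 read pairs of *Afp*, where every other library held 109 or more, 1 of *Alb*, 1 of *Ttr* and 0 of *Serpina1e*. Its *Amn* level of 0.664 CPM and *Cubn* level of 0.93 CPM lay inside the range of the other libraries. Bulk libraries cannot tell fewer cells of a type from less RNA per cell, and this holds for every level given here.

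Compared per length of transcript, *Afp* was the most abundant of the 10 at E9.5, at a median of 9.94 RPKM over 24 libraries (range 0.414 to 39.3). *Rbp4* followed at 2.96, *Ttr* at 1.73, *Apoa1* at 0.933, *Alb* at 0.702, *Serpina1e* at 0.456, *Amn* at 0.29, *Apob* at 0.148 and *Cubn* at 0.138 RPKM, and *Apoa4* had a median of 0. Neighbours in this order had overlapping ranges in each case. In WT replicate 4 the order was *Afp* at 35.9 RPKM, *Apoa1* at 18.6, *Rbp4* at 15.5 and *Ttr* at 9.09, with *Alb* down at 0.26 RPKM.

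Ratios within a library do not depend on how it was scaled. There were 140 *Afp* read pairs for each *Alb* read pair in WT replicate 4, 71 in *Kat6a-/-* replicate 3 and 56.5 in *Kat6a-/-* replicate 4, against a median of 13.6 and a range of 7.94 to 67.5 in the other 21 libraries. The 3 libraries held only 10, 4 and 31 *Alb* read pairs, in that order. *Cubn* outnumbered *Alb* by 38.7, 19.8 and 8.87 to 1 in the same 3 libraries, and the median of the other 21 was 1.0 (range 0.421 to 14). Among those 21, 2 had ratios above that of *Kat6a-/-* replicate 4, which therefore did not stand apart on this ratio, nor on *Afp* per *Alb*: *Kat6a-/-* replicate 2 at 14 and *Kat6b-/-* replicate 4 at 9, with 1 and 2 *Alb* read pairs.

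**Figure D2:**
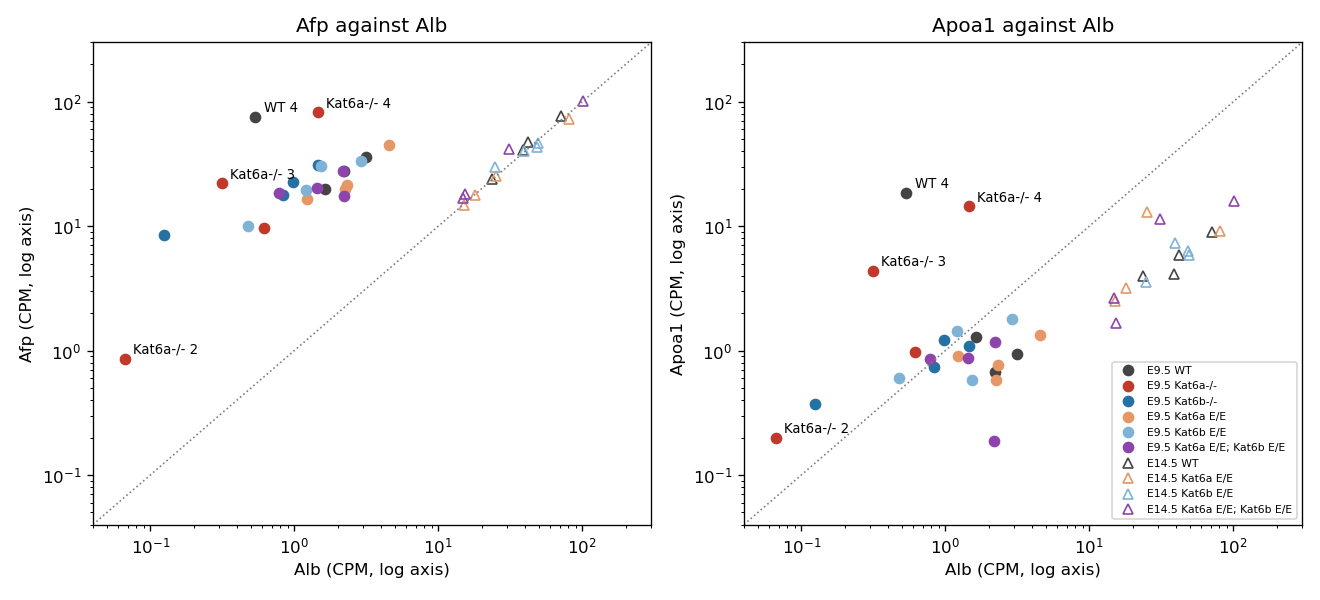
CPM of *Afp* (left) and *Apoa1* (right) against *Alb*, on logarithmic axes, with filled circles for the 24 E9.5 libraries, open triangles for the 16 E14.5 LSK libraries and a dotted line of equal CPM. WT replicate 4 and *Kat6a-/-* replicates 3 and 4 lie above the other E9.5 libraries with like *Alb*, and the E14.5 libraries lie close to equality for *Afp* and below it for *Apoa1*.

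Pairs of the genes differed in how their variation over libraries depended on the 3 high ones. Across the 24 libraries Pearson's r of log2 CPM was 0.888 for *Alb* with *Serpina1e* and 0.881 without the 3 high libraries. *Afp* with *Alb* gave 0.645 and, without the 3, 0.859. *Apoa4* with *Cubn* gave 0.932, which fell to 0.193 without the 3 libraries, and *Amn* with *Cubn* went from 0.754 to −0.118. *Ttr* gave 0.858 with *Rbp4* and 0.483 with *Alb* over 24 libraries, and 0.742 and 0.782 without the 3. These are descriptions over libraries that share litters and low counts, and the correlations of *Apoa4* and of *Amn* with *Cubn* rest on the 3 libraries.

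*Alb* and *Afp* are neighbours on chromosome 5 (GRCm39), in the same orientation and 13887 bases apart, and *Apoa1* and *Apoa4* are 9781 bases apart on chromosome 9. The proximal promoters of *Alb* and *Serpina1e*, the pair with the highest r once the 3 high libraries were left out, are shown with those of *Afp* and *Apoa1* as the 200 bases before the transcript start (GRCm39, GENCODE vM39, strand of the gene). Capitals mark matches to GTTAAT, part of the palindromic site of the hepatocyte factor HNF1, or to TGTTTNC, the core of FOXA sites; on the opposite strand they read ATTAAC and GNAAACA.
Alb, chr5:90608549-90608748, plus strand: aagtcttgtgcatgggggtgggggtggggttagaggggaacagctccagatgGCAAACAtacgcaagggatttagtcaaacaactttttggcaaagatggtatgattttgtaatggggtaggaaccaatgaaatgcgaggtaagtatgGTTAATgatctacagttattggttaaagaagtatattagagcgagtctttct
Serpina1e, chr12:103923180-103923379, minus strand: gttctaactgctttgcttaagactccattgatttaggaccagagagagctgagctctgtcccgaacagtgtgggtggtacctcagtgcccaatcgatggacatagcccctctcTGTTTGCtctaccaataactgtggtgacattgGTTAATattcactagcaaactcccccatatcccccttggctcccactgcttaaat
Afp, chr5:90638384-90638583, plus strand: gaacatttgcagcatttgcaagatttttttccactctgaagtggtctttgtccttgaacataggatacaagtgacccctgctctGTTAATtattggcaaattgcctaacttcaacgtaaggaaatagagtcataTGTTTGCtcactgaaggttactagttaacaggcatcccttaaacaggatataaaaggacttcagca
Apoa1, chr9:46139678-46139877, plus strand: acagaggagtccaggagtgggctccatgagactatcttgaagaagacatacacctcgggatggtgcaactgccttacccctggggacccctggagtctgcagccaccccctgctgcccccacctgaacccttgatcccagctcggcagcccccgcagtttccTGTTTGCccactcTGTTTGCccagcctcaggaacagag

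*Alb*, *Serpina1e* and *Afp* each held both letter patterns, with the HNF1 motif from −52, −55 and −116 bases to the transcript start, whereas *Apoa1* held the FOXA core at 2 places and no HNF1 motif. On both strands, GTTAAT was found in 4 of the 10 promoters (*Afp*, *Apoa4*, *Alb* and *Serpina1e*) and in 4.81% of 21770 promoters of the same length. TGTTTNC was found in 5 of the 10 (*Afp*, *Apoa1*, *Apob*, *Alb* and *Serpina1e*) and in 13.7% of all. An HNF4 core (CAAAGTCCA) and a GATA core (AGATAA) matched 0 of the 10, against 0.312% and 7.25% of all. A match is a string of letters, not a bound site.

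Next, each mutant genotype was compared with WT in the study's own kind of model, a limma fit over all genes in which 4 surrogate variables were covariates and the litter entered as a random effect. The filter on low counts kept 9 of the 10 genes and removed *Apoa4*. With FDR<0.05, 0 of the 9 were called in *Kat6a-/-*, where 2.03% of the 14183 genes tested were, 0 in *Kat6b-/-* (0.628%), 0 in *Kat6aE/E* (0.268%), 0 in *Kat6bE/E* (0%) and 0 in *Kat6aE/E;Kat6bE/E* (2.55%). At an unadjusted p under 0.05 there were 3, 1, 1, 2 and 2 of the 9 in *Kat6a-/-*, *Kat6b-/-*, *Kat6aE/E*, *Kat6bE/E* and *Kat6aE/E;Kat6bE/E*, against 16%, 12.3%, 9.76%, 3.98% and 17.5% of all genes. Fold changes of these genes were imprecise: their median SE on the log2 scale was 0.549 to 0.643 over the 5 comparisons, where that of all genes was 0.0807 to 0.0854. Such an SE holds the spread between embryos of a genotype as well as counting error.

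Most fold changes nevertheless pointed down. The median log2 fold change of the 9 genes against WT was −1.0 in *Kat6b-/-*, −0.813 in *Kat6aE/E*, −1.1 in *Kat6bE/E*, −0.905 in *Kat6aE/E;Kat6bE/E* and −0.3 in *Kat6a-/-*, and that of all genes ran from −0.00427 to 0.000544. These comparisons share the 4 WT libraries. With WT replicate 4 left out, the medians became −0.75, −0.0788, −0.246, −0.222 and 0.373 in the same order.

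*Apob* showed how far 1 WT embryo carried these values. Its log2 fold change was −1.69 ± 0.62 (SE, FDR = 0.372) in *Kat6aE/E*, −1.88 ± 0.643 (FDR = 1) in *Kat6bE/E* and −1.5 ± 0.693 (FDR = 0.276) in *Kat6aE/E;Kat6bE/E*. Without WT replicate 4 the values were −0.42, −0.51 and −0.35. *Apoa1* was at −2.66 ± 1.02 (FDR = 0.182) in *Kat6aE/E;Kat6bE/E* and −2.19 ± 0.934 (FDR = 0.35) in *Kat6b-/-*, and at −1.11 and −0.75 without that library. *Amn* in *Kat6bE/E* went from −1.1 ± 0.417 (FDR = 1) to −0.36. None of these differences passed FDR<0.05 with or without WT replicate 4.

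In *Kat6a-/-* embryos the differences ran in both directions. *Amn* was at a log2 fold change of 1.18 ± 0.364 (limma, FDR = 0.0841), *Serpina1e* at −1.7 ± 0.556 (FDR = 0.105) and *Alb* at −1.72 ± 0.792 (FDR = 0.3). Without WT replicate 4, *Amn* was at 1.86 and passed FDR<0.05, and without *Kat6a-/-* replicate 4 it was at 0.64 and did not. *Serpina1e* was at −2.65 and passed without *Kat6a-/-* replicate 4, and at −0.92 without *Kat6a-/-* replicate 2. For *Alb*, the 4 *Kat6a-/-* levels overlapped the 4 WT levels, because WT replicate 4 lay below *Kat6a-/-* replicates 1 and 4.

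**Figure D3:**
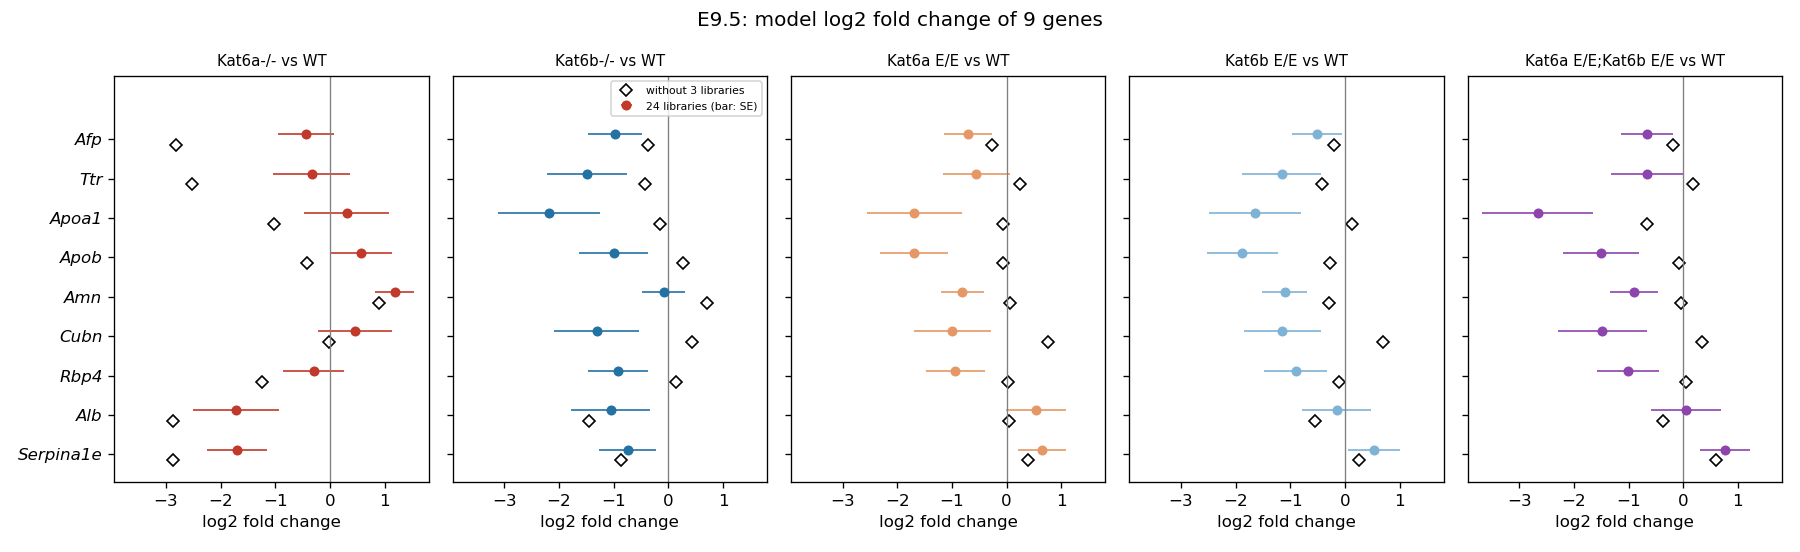
Model log2 fold changes against WT (horizontal axis) for the 9 genes tested at E9.5 in the 5 comparisons; circles and bars are values and SE over 24 libraries, and diamonds are values without WT replicate 4 and *Kat6a-/-* replicates 3 and 4. The diamonds lie closer to 0 for most genes in the point mutants, and further below 0 for *Afp*, *Ttr*, *Alb* and *Serpina1e* in *Kat6a-/-*.

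With all 3 high libraries left out, a choice made after seeing the values, the median log2 fold change of the 9 genes was 0.051 in *Kat6aE/E*, −0.047 in *Kat6aE/E;Kat6bE/E*, −0.203 in *Kat6bE/E* and −0.154 in *Kat6b-/-*. In *Kat6a-/-* it was −1.25, and *Serpina1e*, at −2.87 (FDR = 0.0476), was the 1 gene of the 9 that passed. *Alb* was at −2.88 (FDR = 0.177), *Afp* at −2.81 (FDR = 0.285) and *Ttr* at −2.53 (FDR = 0.333) there. Only 2 *Kat6a-/-* libraries remain in that fit, and 1 of them is replicate 2, the lowest for these genes. *Cubn*, the receptor gene, was at −0.011 in the same comparison.

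A moderated F test over all 6 genotypes called 2 of the 9 genes, *Amn* (FDR = 0.00897) and *Serpina1e* (FDR = 0.0303), where 2.71% of all genes were called. *Serpina1e* was at 0.81 to 1.03 CPM (13 to 16 read pairs) in *Kat6aE/E;Kat6bE/E* embryos and at 0.375 to 0.761 CPM (5 to 9 read pairs) in WT. Its log2 fold change between these 2 groups was 0.76 ± 0.456 (SE, limma, FDR = 0.398). Both calls moved with the model. *Amn* had an FDR of 0.63 without surrogate variables, 0.523 without the 3 high libraries and 0.122 without *Kat6a-/-* replicate 4, and *Serpina1e* had 0.157 without surrogate variables and lost its call in 18 of the 24 fits that left out 1 library.

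The variation of the 10 genes over libraries was described through a score, the mean over the 10 genes of log2 CPM scaled to unit SD. It was 1.94 in WT replicate 4, 1.95 in *Kat6a-/-* replicate 4 and 0.437 in *Kat6a-/-* replicate 3, against −1.69 to 0.415 in the other 21 libraries. The score gives all 10 genes equal weight, although *Alb* and *Serpina1e* did not follow the yolk sac genes in the high libraries. Genotype accounted for 9.02% of its variance and the 4 surrogate variables for 62.1%, and the fourth surrogate variable had r = 0.653 with it over 24 libraries. The model that compares genotypes thus already holds much of this variation as a covariate. The surrogate variables were estimated from all genes tested, 9 of the 10 among them, so they partly hold these genes' own values. The shares of variance are not adjusted for the number of terms, which raises them even without a relation.

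The score was then added to the model, and 4 surrogate variables were estimated anew beside it, so both changes enter these counts. Genes called against WT went from 288 to 336 in *Kat6a-/-*, from 89 to 53 in *Kat6b-/-* and from 38 to 45 in *Kat6aE/E*. They went from 362 to 440 in *Kat6aE/E;Kat6bE/E* and stayed at 0 in *Kat6bE/E*. Leaving out WT replicate 4 gave 198, 12, 9, 269 and 0 genes in *Kat6a-/-*, *Kat6b-/-*, *Kat6aE/E*, *Kat6aE/E;Kat6bE/E* and *Kat6bE/E*. Without WT replicate 1, 2 or 3 there were 129, 94 and 115 genes in *Kat6a-/-* and 168, 101 and 112 in *Kat6aE/E;Kat6bE/E*, lower than without replicate 4, and 33, 15 and 77 in *Kat6b-/-* and 21, 17 and 31 in *Kat6aE/E*, higher than without replicate 4. The part of the 10 genes in these differences was not tested.

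**Figure D4:**
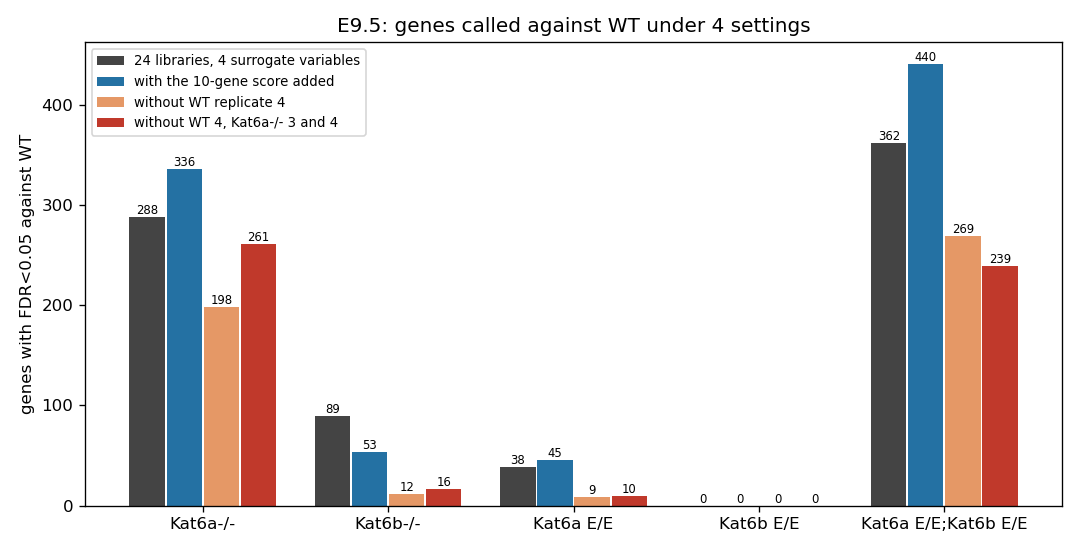
Number of genes with FDR<0.05 against WT (vertical axis) in each E9.5 mutant genotype under 4 settings: all 24 libraries, the 10-gene score added as a covariate, WT replicate 4 left out, and 3 libraries left out. With the score added, and surrogate variables estimated anew beside it, the count falls only in *Kat6b-/-*, from 89 to 53. Leaving out WT replicate 4 lowers it in all 4 genotypes that have calls, as leaving out any other WT library also did.

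The 15 genes whose log2 CPM was most like the score, of 14174 compared, had Pearson's r from 0.856 to 0.658 over the 24 libraries. They included the fibrinogen chains *Fga*, *Fgg* and *Fgb*, the apolipoproteins *Apom*, *Apoe* and *Apoa2*, plasminogen (*Plg*), transferrin (*Trf*), the endodermal transcription factor *Hnf4a* and the zinc transporter *Slc39a4*. *Tdh*, *Cdhr2*, *Hkdc1*, *Rhox5* and *Klb* made up the rest. Spearman's rho, which a few high libraries sway less, ran from 0.817 for *Fga* down to 0.403 for *Rhox5*. It was 0.43 for *Apoe*, 0.447 for *Hkdc1* and 0.466 for *Cdhr2*. These correlations were not computed without the 3 high libraries. *Fga* was at 3.38, 3.42 and 0.704 CPM in WT replicate 4, *Kat6a-/-* replicate 4 and *Kat6a-/-* replicate 3 and at 0 to 0.685 in the other 21 libraries. *Hnf4a* was at 3.11 and 3.61 CPM in the 2 highest libraries and at 0 to 2.46 in the other 21.

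Among markers of other tissues and lists of related genes, most summed levels in the 3 libraries lay within the range of the other 21, and a few did not. Such sums are dominated by broadly expressed genes. The summed level of 10 trophoblast genes was 41.97, 50.2 and 59.28 CPM in WT replicate 4, *Kat6a-/-* replicate 3 and *Kat6a-/-* replicate 4, with 30.32 to 57.97 in the other 21 libraries, so *Kat6a-/-* replicate 4 was the highest; *Tpbpa* was at 0 in all 24 and *Prl3d1* in 22. Primitive erythroid genes, which the yolk sac's blood islands make and which circulate in the embryo, summed to 4046, 11020 and 8697 CPM against 3162 to 13950. Endocytosis and brush border genes other than *Cubn* and *Amn* summed to 240.8, 183.4 and 213.5 CPM against 166.4 to 238.8, and the other lipid and retinol carriers to 118.1, 81.09 and 106.9 CPM against 74.15 to 100.5, so WT replicate 4 was above the range for both lists and *Kat6a-/-* replicate 4 for the carriers. The sums of plasma proteins, endoderm transcription factors, gut endoderm, parietal endoderm, nephric, and roof plate and choroid plexus genes lay within the range of the other 21 libraries in all 3. Single genes of these lists did stand apart. *Rhox5*, on the parietal endoderm list but also a visceral endoderm marker, was at 4.07, 2.74 and 3.7 CPM in WT replicate 4, *Kat6a-/-* replicate 3 and *Kat6a-/-* replicate 4. The other 21 had at most 1.93. *Slc39a4* was at 2.68 and 2.34 CPM in WT replicate 4 and *Kat6a-/-* replicate 4 against at most 1.21. Further visceral endoderm markers on the lists ran, over the 24 libraries, from 0.0594 to 2.3 CPM for *Spink1* (median 0.309) and from 0.756 to 4.4 for *Slc13a4* (median 2.07). *Lrp2* ran from 34.3 to 82.7 (median 53.1) and *Dab2* from 64.9 to 91.1 (median 73). Their levels by library are not given here, and the sums do not show whether they followed.

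Calls among genes of the pathways around the 10 differed between lists. The lists were chosen with earlier results of these data known, so the shares called in them are a description. Of the 7 lipid and retinol carriers, 13 plasma proteins and 11 endocytosis and brush border genes tested, 0 passed FDR<0.05 in any of the 5 comparisons. Of 15 endoderm transcription factors, *Foxa1* (log2 fold change −0.741 ± 0.192, FDR = 0.0463) and *Foxa2* (−1.03 ± 0.224, FDR = 0.0199), which open chromatin in foregut endoderm, were lower in *Kat6a-/-* embryos, which makes 2 of 15 where 2.03% of all genes were called. The summed level of this list was 153.1, 119.6, 195.5 and 184.4 CPM in *Kat6a-/-* replicates 1 to 4 and 173.1 to 196.8 in WT. *Kat6a-/-* replicate 2 was thus the lowest library. Whether the calls of *Foxa1* and *Foxa2* rest on that embryo was not tested. Of 9 gut endoderm genes, *Epcam* (0.431 ± 0.106, FDR = 0.0382), *Cdh1* (0.521 ± 0.125, FDR = 0.0401) and *Krt18* (0.356 ± 0.0873, FDR = 0.038), which encode epithelial adhesion and keratin proteins, were higher in *Kat6a-/-*, which makes 3 of 9, and *Krt18* (0.398 ± 0.0865, FDR = 0.0181) was also higher in *Kat6aE/E;Kat6bE/E*. Of 8 nephric genes, *Pax2* was lower in *Kat6a-/-* (−0.796 ± 0.177, FDR = 0.0189), which makes 1 of 8. No trophoblast, parietal endoderm, erythroid or roof plate gene of these lists was called in a comparison with WT.

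In the sorted LSK cells of E14.5 fetal liver the same genes gave another pattern. *Afp* ranged from 14.8 to 102 CPM with a median of 40.3 over the 16 libraries, and *Alb* from 14.7 to 101 CPM with a median of 34.9. The number of *Afp* read pairs for each *Alb* read pair was 0.895 to 1.35, with a median of 1.02, far from the 7.94 or more of every E9.5 library. *Apoa4* had 0 read pairs in all 16 libraries, which allows up to 0.0523 to 0.256 CPM, *Amn* had 0 in 7 and *Cubn* 0 in 4. *Cubn* reached at most 0.542 CPM, and there were 0 to 0.0247 *Cubn* read pairs for each *Alb* read pair. The sorted libraries thus held hepatocyte transcripts at levels that varied between replicates, and next to no receptor transcripts. Genes with a count numbered 13683 in *Kat6aE/E* replicate 2 and 12600, 13555 and 13481 in *Kat6aE/E;Kat6bE/E* replicates 2 to 4, against 16082 to 17647 elsewhere. Those double mutants shared a litter and had 0 *Cubn* read pairs, and their replicate 4 was highest for *Afp* and *Alb*. The part of library quality, litter or genotype in these levels was not tested.

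The low-count filter kept 7 of the 10 genes at E14.5, leaving out *Apoa4*, *Amn* and *Cubn*. Of these 7, 0 passed FDR<0.05 in *Kat6aE/E*, where 1.61% of the 13071 genes tested did, 0 in *Kat6bE/E* (0%) and 0 in *Kat6aE/E;Kat6bE/E* (0%), and 0 had an unadjusted p under 0.05 in any of the 3 (13.3%, 3.12% and 7.31% of all genes). The smallest p in *Kat6aE/E* belonged to *Serpina1e*, at a log2 fold change of −0.881 ± 0.479 (limma, FDR = 0.469). In *Kat6bE/E* it was *Apob*, at 0.755 ± 0.408 (FDR = 1), and in *Kat6aE/E;Kat6bE/E* it was *Serpina1e*, at −0.834 ± 0.797 (FDR = 0.862). The median log2 fold change of the 7 genes was −0.357, 0.214 and −0.448, with median SEs of 0.443, 0.474 and 0.71, so each median was smaller than the median error. A moderated F test over the 4 genotypes called 0 of the 7 genes, where 5.62% of all genes were called.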

How the data were processed

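Whole E9.5 embryos and sorted E14.5 LSK cells were sequenced as paired ends from unstranded TruSeq v2 libraries. The deposited counts are read pairs per RefSeq gene, which the authors made by aligning to mm39 with Rsubread and counting with featureCounts; the deposited gene length column served for RPKM only. The labels and the study's methods give different read lengths and sequencers.

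The 10 genes and the gene lists were chosen with earlier results of these data known. Gene types came from a GRCm38 gene table (26359 of 26411 genes matched by identifier), used only for types. Following the authors' methods, protein-coding genes not on the Y chromosome were filtered (edgeR filterByExpr), scaled by TMM, and fitted separately per stage in limma (voomLmFit, 4 surrogate variables from wsva, litter as random block with a correlation of 0.107 at E9.5 and 0.331 at E14.5, robust moderation), with WT as the reference level. FDR is the Benjamini-Hochberg value over all genes tested, called below 0.05. CPM uses TMM-scaled totals, and log2 CPM a prior count of 2. The score is the mean of scaled log2 CPM over the 10 genes. Fits were tested on simulated counts. Alternatives were DESeq2, the edgeR quasi-likelihood test, DESeq2 size factors, no low-count filter, no surrogate variables, no litter block, the score as covariate, a replicate block, each library left out, and, added after the data were seen, contrasts from group means and the loss of 3 libraries. Named were all 10 genes, those with an unadjusted p under 0.05 (or the smallest), the 15 genes most like the score and called genes of the lists. Versions were 3.58.1 of limma, 4.0.16 of edgeR, 1.42.0 of DESeq2 and 4.3.3 of R. No 2 replicate libraries agreed within sampling noise (chi-square per degree of freedom 2.28 to 31.7 over 36 pairs). Counting error alone sets the limits given for counts of 0.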

Additional observations from a re-analysis of the deposited data

Results flagged for a closer look

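Within groups of 4 libraries, 5 extreme values stood out by Dixon's ratio beyond its critical value among 60 gene and genotype groups at E9.5; chance flags about 1 in 20 groups. In WT replicate 4, *Apob* was at 34.1 CPM, *Rbp4* at 20.1 CPM and *Apoa4* at 6.33 CPM, each far above WT replicates 1 to 3. *Apoa4* was also flagged in *Kat6b-/-* replicate 1, at 0.121 CPM, and in *Kat6aE/E;Kat6bE/E* replicate 1, at 0.115 CPM, where 1 or 2 read pairs stood against 0 in the rest of the group.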

How the results depend on the processing

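Counts of the 10 genes called at E14.5, and those in *Kat6aE/E* and *Kat6bE/E* at E9.5, were 0 under every alternative and with any 1 library left out. In *Kat6a-/-*, 1 gene was called by DESeq2 (*Alb*) and 1 without the 3 high libraries (*Serpina1e*); with 1 library left out the count was 0 to 1 in *Kat6a-/-*, 0 to 1 in *Kat6b-/-* and 0 to 1 in *Kat6aE/E;Kat6bE/E*, the last 2 being *Apoa4*, which then passed the low-count filter. The F test called 0 of the 10 without surrogate variables, 0 with DESeq2, 1 with edgeR and 1 without the 3 libraries, and 1 to 4 with 1 library left out.

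Genes called in *Kat6aE/E* numbered 13 without surrogate variables, 66 with DESeq2, 8 with the score in place of the surrogate variables and 10 without the 3 libraries, and 9 (without WT replicate 4) to 87 with 1 library left out. In *Kat6aE/E;Kat6bE/E* there were 0 without surrogate variables, 0 with the score in their place, 239 without the 3 libraries and 101 (without WT replicate 2) to 555. In *Kat6a-/-* there were 111 without surrogate variables, 479 with DESeq2, 88 with the score in their place and 94 (without WT replicate 2) to 395. In *Kat6b-/-* there were 0 without surrogate variables, 154 with DESeq2, 53 with the score beside them, 0 with it in their place, 16 without the 3 libraries and 10 (without *Kat6b-/-* replicate 3) to 164. *Kat6bE/E* had 0 in all, 0 to 0 with 1 library left out. The cause of these differences was not tested.

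Replicate numbers paired the E9.5 samples weakly at most. Deviations of libraries with the same number had a mean r of 0.0403, down to −0.233, against −0.0134 for different numbers. The mean was 0.134 for number 4, which WT replicate 4 and *Kat6a-/-* replicate 4 carry, and −0.033 to 0.0376 for numbers 1 to 3. Of 24 libraries, 10 were most like their own number. The replicate block gave 270 genes in *Kat6b-/-* and 307, 40, 358 and 0 in *Kat6a-/-*, *Kat6aE/E*, *Kat6aE/E;Kat6bE/E* and *Kat6bE/E*, and changed no call among the 10 genes.

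Depth limits all of the 10 genes but *Afp*: outside the 3 high libraries the other 9 had at most 106 read pairs in an E9.5 library.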
